A study of Mus musculus with 8 samples.

Results

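The genes described are 10 NF-κB subunits and feedback inhibitors, *Nfkb1*, *Nfkb2*, *Rel*, *Relb*, *Nfkbia*, *Nfkbiz*, *Bcl3*, *Tnfaip3*, *Irak3* and *Zc3h12a*, chosen by symbol and found among the 55416 gene identifiers of the count files. All 10 were among the 18560 genes that passed edgeR's expression filter. RNA-seq had been run on one side of the lung of 8 mice, C57BL/6 by the labels, which the methods describe as female C57BL/6J mice 6 to 8 weeks old. Control mice (numbers 1, 2 and 4) received DMSO by tail vein and then saline, LPS mice (1, 6 and 7) received LPS at 35 mg/kg, and dual-treatment mice (2 and 5) received the pan-PAD inhibitor YW3-56 at 10 mg/kg in DMSO before the same LPS dose. Lungs were taken 24 h after LPS. In the study's separate survival experiment the median survival was shorter than that time with LPS, and longer with YW3-56 before LPS. The groups may thus differ in survival and in stage of shock, and the part of this in the results was not tested. The methods name no DMSO injection for the LPS mice, so the vehicle and YW3-56 cannot be told apart in the comparison of the dual treatment with LPS, and LPS and a missing vehicle cannot be told apart against control. The methods speak of 3 sequenced mice per group, while the labels and a figure caption of the study give 2 for the dual treatment. Total counts ran from 19061949 to 20908608 per library.

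NF-κB is a family of dimeric transcription factors that rest in the cytoplasm, bound by IκB proteins. When LPS reaches Toll-like receptor 4, adaptors and the IKK kinases mark IκB for destruction, and the freed dimers enter the nucleus and switch on cytokines, chemokines and adhesion molecules in lung macrophages, epithelium and endothelium. Among the genes they switch on are their own subunits and inhibitors, so that the response carries its own brakes.

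Some libraries stood apart from the others of their group. Squamous epithelium markers (9 of 10 matched, *Krt13* the most abundant) summed to 783 and 2097 CPM in LPS mice 6 and 7, against 1.25 CPM in LPS mouse 1 and at most 25.5 CPM in the control and dual-treatment mice. Skeletal muscle markers (9 of 9 matched, *Acta1* the most abundant) summed to 529.6 and 1359.6 CPM in LPS mice 6 and 7 and to at most 20.7 CPM elsewhere. B cell markers (5 of 5, *Ighm* the most abundant) summed to 1364 CPM in dual-treatment mouse 2 and to 93.9 CPM in mouse 5, with 94.8 to 131 CPM in the LPS mice and 95.3 to 99.5 CPM in the control mice. The directions of the 10 genes are therefore also given without LPS mice 6 and 7 and without dual-treatment mouse 2. So are those counts of pathway genes that changed most. Ratios, ranks, profile distances and single pathway genes are given from all 8 libraries only.

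Leukocyte markers moved with the groups as well. The 10 neutrophil markers (*S100a9* the most abundant) summed to 250.3, 139.8 and 145 CPM in control mice 1, 2 and 4, to 2509, 3263 and 2051 CPM in LPS mice 1, 6 and 7, and to 1972 and 2549 CPM in dual-treatment mice 2 and 5. These sums are mostly *S100a8* and *S100a9*, neither called in dual-treatment against LPS lungs. Of the 10 neutrophil markers 4 were higher there (among them *Retnlg*, log2FC 1.49, and *Cxcr2*, 1.48), 2 were lower (*Ly6g*, -2.75, and *Camp*, -2.96), and the others were not called. The 9 macrophage markers (*Csf1r* the most abundant) summed to 217 to 303 CPM in LPS, 262 to 352 CPM in control and 839 and 916 CPM in dual-treatment mice. The 6 monocyte markers (*Chil3*) summed to 451 to 639.7 CPM in control mice, 521 to 967 CPM in LPS mice, and 971 and 1523 CPM in dual-treatment mice. *Chil3*, which makes up most of these sums, was called in no comparison, while with LPS *Ccr2* fell (log2FC -3.19) and *Ly6c2* (3.37) and *Vcan* (4.53) rose. T cell markers (6 of 6, *Cd3d*) summed to 6.49 to 16.6 CPM over the 8 mice, and with LPS 1 of the 6 rose and 2 fell. No matched marker of any list was at 0 in all libraries. The part of these cells in the results below was not tested, and in whole lung RNA a change in the number of cells of a type cannot be told apart from a change in RNA per cell.

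Tissue markers fitted the label of lung in each library. Alveolar epithelium markers (9 of 9, *Sftpc*) summed to 33744 to 41653 CPM in control, 18720.1 to 32345 CPM in LPS, and 21435 and 32104 CPM in dual-treatment mice. Airway epithelium markers (4 of 4, *Scgb1a1*) summed to 30622 to 38925, 55497 to 67232, and 23681 and 26295 CPM in the same order of groups, and endothelium markers (6 of 6, *Cdh5*) to 2917 to 3417, 1721 to 2086, and 2914 and 3120.0 CPM. The markers of a list did not all move alike. With LPS 4 of the 9 alveolar markers fell and 1 rose, 3 of the 4 airway markers rose and 1 fell, and 4 of the 6 endothelium markers fell, with *Cdh5* not called. Heart muscle markers (6 of 6, *Myh6*) summed to 355 to 996, 437 to 725, and 210.2 and 209.8 CPM, and erythroid markers (5 of 5, *Hbb-bs*) to 1734 to 3908, 1468 to 3284, and 426 and 381 CPM. Mitochondrial transcripts made up 1.49% to 1.61% of the counts in control mice and 1.5% to 1.85% in LPS mice. In dual-treatment mice 2 and 5 they made up 1.3% and 1.17%, less than in any other library.

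With LPS, the whole set of subunits and inhibitors rose. For all 10 genes the lowest LPS mouse lay above the highest control mouse and the adjusted p was under 0.05, with 32.6% of all tested genes called higher and 33.9% called lower in that comparison. Of all tested genes 34.7% had each LPS mouse above the control mice. Their median log2FC was 2.80, beside -0.01 over all tested genes, and single genes ranged from 0.68 for *Nfkb1* to 4.84 for *Tnfaip3*. By edgeR's quasi-likelihood test, with p-values adjusted by Benjamini-Hochberg, their adjusted p-values lay between 3.29e-07 (*Zc3h12a*) and 0.000412 (*Nfkb1*). In dual-treatment against LPS lungs all 10 were lower, without overlap between the groups, while 27.4% of tested genes were called lower and 31.7% higher, and 32.9% of them had both dual-treatment mice below the LPS mice. The median log2FC there was -1.64, beside 0.06 over all tested genes, and by the same edgeR test the adjusted p-values lay between 5.29e-06 (*Zc3h12a*) and 0.00435 (*Irak3*). Against control, 6 of the 10 were still higher in the dual-treatment lungs and 4 were not called, with 9.13% of tested genes called higher and 7.02% lower. The median log2FC of that comparison was 1.07, beside 0.00 over all tested genes. The comparisons share their control or LPS libraries, and so their values are given side by side and are not independent.

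**Figure D1:**
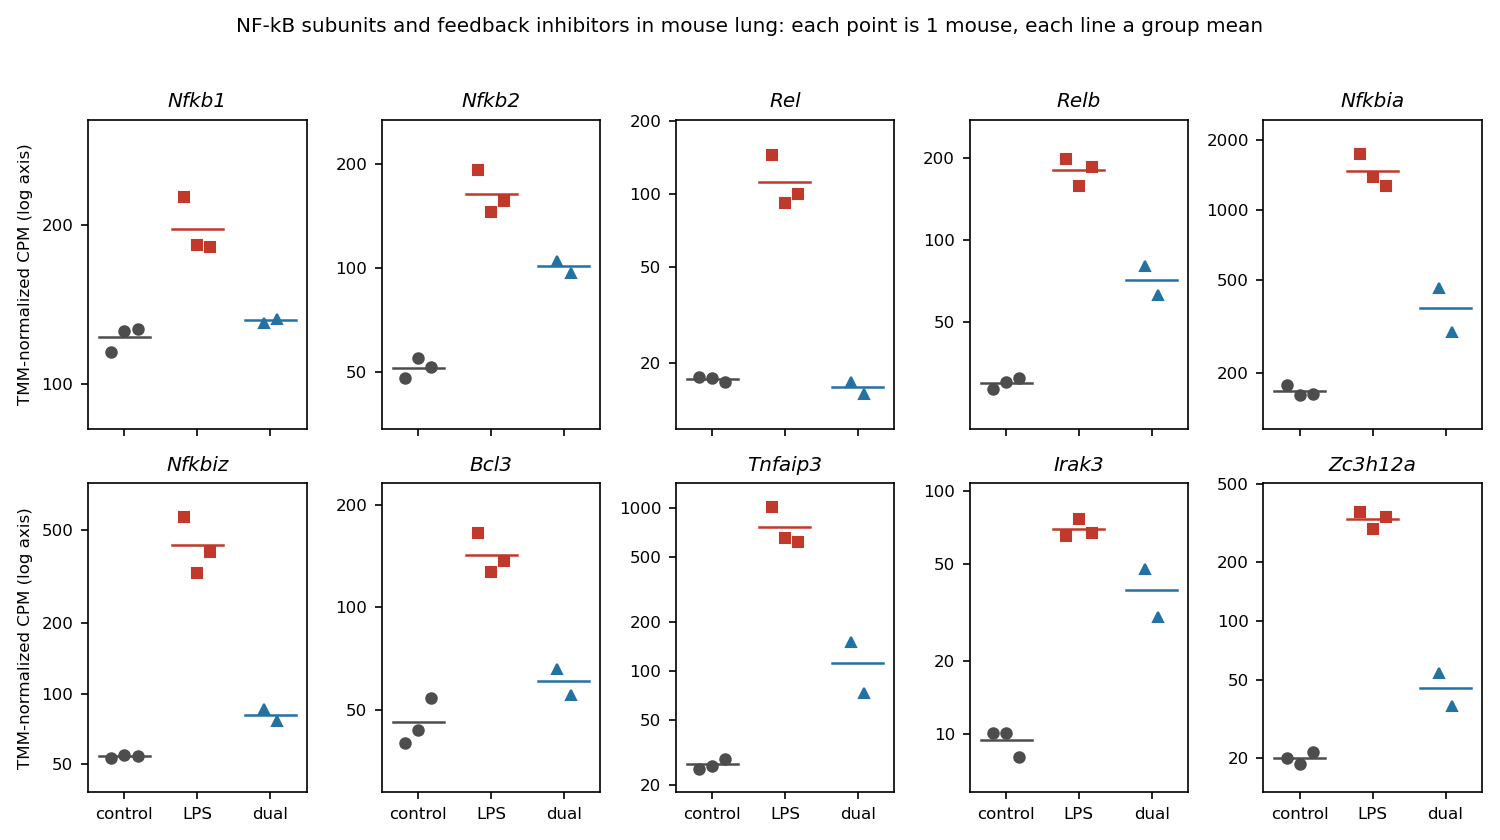
TMM-normalized CPM (log axis) of the 10 genes in each mouse, with control as circles, LPS as squares, the dual treatment as triangles and the group mean as a line. LPS points lie above control points in each panel, and *Rel* of the dual-treatment mice (16.7 and 14.9 CPM) overlaps the control mice (16.7 to 17.4 CPM) in mouse 2 and lies below them in mouse 5, while *Irak3* (48.0 and 30.3 CPM) stays well above it (8.0 to 10.1 CPM).

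The choice of scaling moved all genes together. With library size in place of TMM factors, the median log2FC of all tested genes was -0.29 in LPS against control, with 4336 genes higher and 7832 lower, against 6046 and 6300 with TMM factors. In dual-treatment against LPS lungs it was 0.38, with 7889 higher and 3225 lower, against 5875 and 5085. Under that scaling all 10 genes were still called higher with LPS, and 8 of the 10 were still called lower with the dual treatment. *Nfkb1* (log2FC -0.25, adjusted p = 0.0523) and *Irak3* (log2FC -0.51, adjusted p = 0.0535) kept their direction and missed the threshold of edgeR's quasi-likelihood test, with p-values adjusted by Benjamini-Hochberg. The log2FC of *Nfkb1* with LPS was 0.39 under it, and that of *Nfkb2* in dual-treatment against LPS lungs was -0.37.

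Of the subunits, *Nfkb1* encodes p105, the precursor that is cut to the DNA-binding subunit p50. *Nfkb1* (ENSMUSG00000028163, chr3:135290264-135397742, minus strand, GRCm39) measured 115, 126 and 127 CPM in control mice 1, 2 and 4, 227, 184 and 182 CPM in LPS mice 1, 6 and 7, and 130.4 and 133 CPM in dual-treatment mice 2 and 5. It was high in the LPS mice alone, and the dual-treatment mice lay just above the highest control mouse. Its log2FC was 0.68 ± 0.11 (SE) with LPS and -0.59 ± 0.12 in dual-treatment against LPS lungs, the smallest of the 10 in both comparisons. *Nfkb2* encodes p100, the precursor of p52 in the non-canonical pathway. *Nfkb2* (ENSMUSG00000025225, chr19:46292759-46303812, plus strand) measured 47.9, 55.0 and 51.7 CPM in control, 192, 145 and 156 CPM in LPS, and 105 and 97.0 CPM in dual-treatment mice. The 3 groups did not overlap, and the dual-treatment mice lay between the others. The log2FC was 1.67 ± 0.12 with LPS, -0.70 ± 0.13 in dual-treatment against LPS lungs and 0.97 ± 0.13 in dual-treatment against control lungs.

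*Rel* encodes c-Rel, a subunit with an activation domain that is prominent in lymphocytes and myeloid cells. *Rel* (ENSMUSG00000020275, chr11:23686847-23721264, minus strand) measured 17.4, 17.3 and 16.7 CPM in control, 145, 91.9 and 100 CPM in LPS, and 16.7 and 14.9 CPM in dual-treatment mice. LPS mice were more than 5-fold above the control mean, and the dual-treatment mice overlapped the control mice. The log2FC was 2.71 ± 0.17 with LPS and -2.83 ± 0.20 in dual-treatment against LPS lungs. *Relb* encodes RelB, the partner of p52. *Relb* (ENSMUSG00000002983, chr7:19339017-19363425, minus strand) measured 28.2, 29.99 and 30.9 CPM in control, 198, 158 and 185 CPM in LPS, and 80.4 and 62.4 CPM in dual-treatment mice. Its LPS values were as far above control as those of *Rel* (log2FC 2.60 ± 0.13), but the dual-treatment mice lay above each control mouse, with a log2FC of -1.34 ± 0.14 against LPS and 1.27 ± 0.14 against control. The *Rel* and *Relb* responses were not tested against each other.

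*Rela*, which encodes p65 and belongs to the wider pathway list, moved less than *Rel* and *Relb*. It measured 122, 116 and 121 CPM in control, 285, 234 and 222 CPM in LPS, and 129.9 and 117 CPM in dual-treatment mice, a log2FC of 1.04 ± 0.11 with LPS, -1.0 ± 0.13 in dual-treatment against LPS lungs and 0.05 ± 0.13 against control. The balance between subunits, taken as CPM per kb of exon, therefore shifted. *Rel* over *Rela* was 0.0581 to 0.0626 in control, 0.166 to 0.214 in LPS, and 0.0544 and 0.0536 in dual-treatment mice. *Relb* over *Rela* was 0.149 to 0.166, 0.436 to 0.537, and 0.399 and 0.343 in the same order of groups. *Nfkb2* over *Nfkb1* was 0.660 to 0.707, 1.28 to 1.39, and 1.30 and 1.19. The ratios of the non-canonical genes *Relb* and *Nfkb2* in the dual-treatment mice thus lay nearer to those of LPS than of control mice, and that of *Rel* lay below each control mouse.

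Among the IκB proteins, *Nfkbia* encodes IκBα, the classical inhibitor that carries dimers back to the cytoplasm. *Nfkbia* (ENSMUSG00000021025, chr12:55535332-55539432, minus strand) measured 177, 161 and 163 CPM in control, 1743, 1382 and 1263 CPM in LPS, and 463 and 299.6 CPM in dual-treatment mice. It was the most abundant of the 10 per kb in each group. The log2FC was 3.13 ± 0.19 with LPS, -1.94 ± 0.21 in dual-treatment against LPS lungs and 1.19 ± 0.20 against control. Per kb, *Nfkbia* over *Rela* was 2.46, 2.33 and 2.27 in control, 10.3, 9.98 and 9.63 in LPS, and 6.02 and 4.32 in dual-treatment mice. The *Nfkbia* transcript thus stood higher against that of *Rela* in both LPS-treated groups than in control.

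*Nfkbiz* encodes IκBζ and *Bcl3* encodes BCL3, nuclear IκB proteins that act on p50 dimers at promoters. *Nfkbiz* (ENSMUSG00000035356, chr16:55631738-55659262, minus strand) measured 53.1, 54.5 and 54.4 CPM in control, 564, 327 and 402 CPM in LPS, and 85.9 and 76.3 CPM in dual-treatment mice. The control mice were nearly equal, the LPS mice spread 1.73-fold, and the dual-treatment mice lay above control without overlap. Its log2FC was 3.00 ± 0.19 with LPS and -2.41 ± 0.22 in dual-treatment against LPS lungs. *Bcl3* (ENSMUSG00000053175, chr7:19541553-19557570, minus strand) measured 39.9, 43.6 and 54.2 CPM in control, 166, 127 and 137 CPM in LPS, and 65.9 and 55.3 CPM in dual-treatment mice. It had the widest control range of the 10, 1.36-fold, and its lower dual-treatment mouse was just above the highest control mouse. The log2FC of *Bcl3* was 1.64 ± 0.15 with LPS and -1.24 ± 0.17 in dual-treatment against LPS lungs.

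The other brakes act above or beside NF-κB. *Tnfaip3* encodes A20, a ubiquitin-editing enzyme that shuts off signalling between the receptors and IKK. *Tnfaip3* (ENSMUSG00000019850, chr10:18874201-18891405, minus strand) measured 25.2, 26.1 and 29.0 CPM in control, 1020.3, 661 and 623 CPM in LPS, and 152 and 73.6 CPM in dual-treatment mice. It had the largest rise of the 10, and its dual-treatment mice differed 2.07-fold, the widest spread of the 10 in that group. The log2FC was 4.84 ± 0.31 with LPS, -2.77 ± 0.33 in dual-treatment against LPS lungs and 2.08 ± 0.30 against control. Without dual-treatment mouse 2 the last comparisons gave -3.40 and 1.43.

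*Irak3* encodes IRAK-M, an IRAK family member of monocytes and macrophages that dampens Toll-like receptor signalling. *Irak3* (ENSMUSG00000020227, chr10:119975568-120038035, minus strand) measured 10.1, 10.04 and 8.0 CPM in control, 65.7, 77.2 and 67.3 CPM in LPS, and 48.0 and 30.3 CPM in dual-treatment mice. Both dual-treatment mice were more than 3-fold above the control mean and below each LPS mouse. The log2FC was 2.90 ± 0.18 with LPS, -0.84 ± 0.19 in dual-treatment against LPS lungs and 2.06 ± 0.19 against control. *Zc3h12a* encodes regnase-1, an RNase that degrades cytokine mRNAs. *Zc3h12a* (ENSMUSG00000042677, chr4:125012216-125021711, minus strand) measured 20.1, 18.7 and 21.4 CPM in control, 361, 295 and 339 CPM in LPS, and 54.1 and 37.0 CPM in dual-treatment mice. Its LPS mice lay close together (1.22-fold from lowest to highest), and the dual-treatment mice lay between the groups. The log2FC was 4.05 ± 0.16 with LPS, -2.86 ± 0.18 in dual-treatment against LPS lungs and 1.18 ± 0.16 against control.

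**Figure D2:**
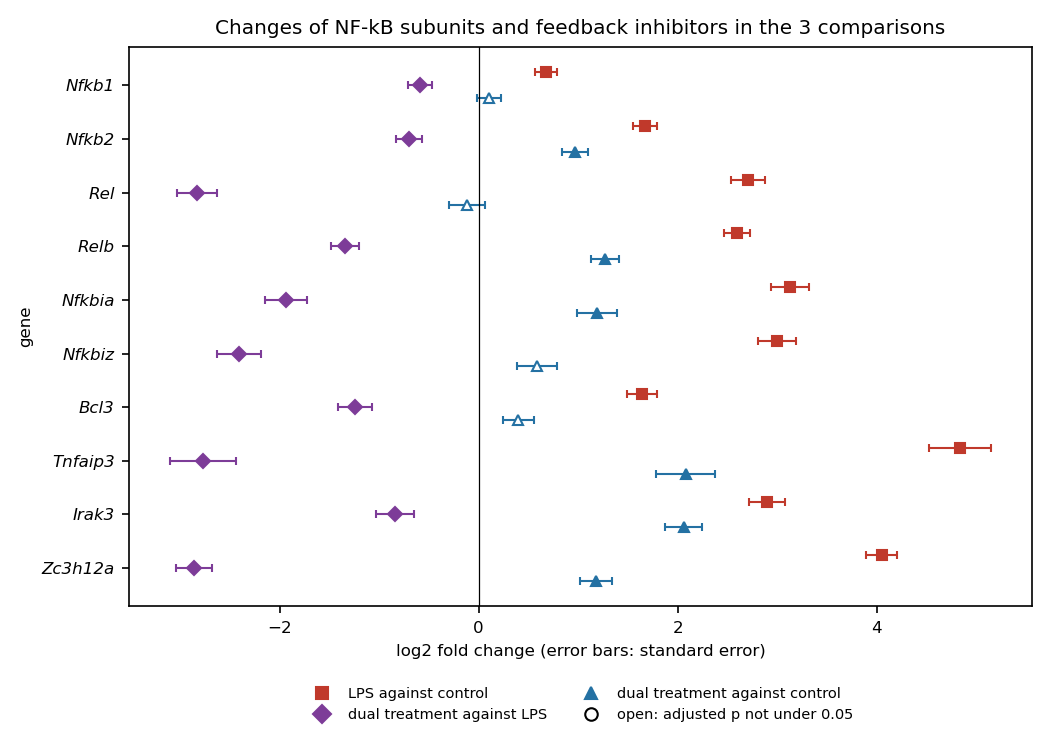
log2 fold change of the 10 genes (x axis, error bars are the SE) in LPS against control (squares), dual treatment against LPS (diamonds) and dual treatment against control (triangles), with open symbols where the adjusted p was not under 0.05. LPS against control runs from 0.68 to 4.84 and dual treatment against LPS from -2.86 to -0.59, and the open triangles are *Nfkb1*, *Rel*, *Nfkbiz* and *Bcl3*.

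The 10 genes differed in how much of the LPS level was left in the dual-treatment lungs. *Zc3h12a* stood at 16.3% and 11.2% of the LPS mean in mice 2 and 5, *Rel* at 14.9% and 13.3%, *Tnfaip3* at 19.8% and 9.58%, and *Nfkbiz* at 19.9% and 17.7%. *Nfkbia* stood at 31.6% and 20.5%, *Relb* at 44.6% and 34.6%, and *Bcl3* at 46.0% and 38.6%. The highest shares were those of *Irak3* (68.5% and 43.3%), *Nfkb2* (63.7% and 59.1%) and *Nfkb1* (66.0% and 67.2%). Since a gene with a small rise keeps a high share even at its control level, the level against control tells these apart. Against the control mean, *Nfkb1* stood at 1.06-fold and 1.08-fold, and *Nfkb2* at 2.03-fold and 1.88-fold. *Irak3* stood at 5.11-fold and 3.23-fold, and *Tnfaip3* at 5.69-fold and 2.75-fold.

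By the test against control, the genes still higher in dual-treatment lungs were *Nfkb2*, *Relb*, *Nfkbia*, *Tnfaip3*, *Irak3* and *Zc3h12a*. By edgeR's quasi-likelihood test, with p-values adjusted by Benjamini-Hochberg, their adjusted p-values ran from 0.000201 (*Irak3*) to 0.00387 (*Nfkbia*). *Nfkb1*, *Rel*, *Nfkbiz* and *Bcl3* did not pass, which does not show that they were at the control level. The log2FC of *Rel* was -0.12, with a 95% interval from -0.53 to 0.30, and that of *Nfkb1* was 0.10, from -0.18 to 0.37. That of *Nfkbiz* was 0.59, from 0.15 to 1.02, and that of *Bcl3* was 0.40, from 0.04 to 0.76, in intervals not adjusted for the number of genes. In both dual-treatment mice *Nfkbiz* and *Bcl3* were above each control mouse, as were 26.1% of all tested genes. The call for *Nfkbiz* depended on the analysis. Its adjusted p was 0.0724 by edgeR's quasi-likelihood test, and over the alternatives it ran from 0.0039 with only the 2 groups compared to 0.302 without dual-treatment mouse 2.

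Left-out libraries changed no direction. Without LPS mice 6 and 7, LPS mouse 1 stood alone and was assumed to vary like the other groups. By log2FC all 10 genes were then still higher with LPS, and lower in dual-treatment than in LPS lungs. Most rises were then larger, such as 3.39 for *Nfkbiz*, 3.08 for *Rel* and 5.26 for *Tnfaip3*, and that of *Irak3* was 2.81. Without dual-treatment mouse 2, the log2FC of the 10 genes again kept their direction against LPS and against control. LPS mouse 1 was the highest LPS mouse for 9 of the 10 genes, with *Irak3* highest in mouse 6. Dual-treatment mouse 2 was above mouse 5 for 9 of the 10, with *Nfkb1* the exception.

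Ordered by CPM per kb of exon, with *Rela* added, *Nfkbia* came first in each group, at means of 86.2, 755 and 197 in control, LPS and dual-treatment lungs (SD 4.62, 129 and 59.6). *Rela* was next in control lungs (36.6, SD 0.878) and in dual-treatment lungs (37.7, SD 2.75), and took rank 5 with LPS (75.5, SD 10.3). In control lungs *Nfkbiz* (9.62, SD 0.141), *Nfkb1* (9.58, SD 0.515) and *Bcl3* (8.76, SD 1.42) lay close together, and their order changed between mice. *Irak3* was lowest there (1.66, SD 0.213), just under *Rel* (2.21, SD 0.0496). With LPS, *Zc3h12a* rose from rank 8 to rank 2 (5.16 to 85.2) and *Tnfaip3* from rank 9 to rank 3 (2.75 to 79.1), while *Nfkb1* dropped from rank 4 to rank 9 (9.58 to 15.4). The LPS means of *Zc3h12a* (SD 8.57), *Tnfaip3* (SD 22.6), *Nfkbiz* (76.8, SD 21.6) and *Rela* lay close together. Their order changed between LPS mice, though *Zc3h12a* was above *Rela* in each. In dual-treatment lungs the means of *Nfkbiz* (14.4, SD 1.21), *Relb* (14.0, SD 2.5), *Nfkb2* (12.8, SD 0.674), *Zc3h12a* (11.7, SD 3.1), *Tnfaip3* (11.6, SD 5.73) and *Bcl3* (11.6, SD 1.43) lay close together. Each was no farther from the next than the larger SD of the pair, though *Relb* lay above *Nfkb2* by more than the SD of *Nfkb2*. *Rel* was last (2.04, SD 0.17).

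Profiles over the 8 mice were compared as log2 CPM centred on each gene's mean, by Euclidean distance. Within the 10 genes the closest pairs were *Nfkb2* with *Bcl3* (0.747) and *Rel* with *Nfkbiz* (0.780), and the farthest was *Nfkb1* with *Tnfaip3* (5.13). Among all tested genes, the nearest profile was that of *Sod2* for *Nfkbia* (0.376), *Tap1* for *Zc3h12a* (0.414) and *Gbp3* for *Tnfaip3* (0.746). It was that of *U2af2* for *Nfkb1* (0.127), *Ptpn1* for *Nfkb2* (0.315), *Trp53i11* for *Rel* (0.234), *Lat2* for *Relb* (0.386), *Ppp1r1c* for *Nfkbiz* (0.263) and *Itga7* for *Bcl3* (0.270). Nearest to the mean profile of the 10 were *Xaf1* (0.380), *Ctps1* (0.402), *Birc3* (0.429), *Cd302* (0.432) and *Tapbp* (0.434).

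The rest of the pathway was followed in 72 genes, all of them tested. With LPS 56 were higher, 5 lower and 11 not called, with a median log2FC of 1.19. Of all tested genes 32.6% were called higher and 33.9% lower there. In dual-treatment against LPS lungs 44 were lower, 7 higher and 21 not called (median -0.86), beside 27.4% of tested genes lower and 31.7% higher. Against control 23 were higher, 1 lower and 48 not called (median 0.35), beside 9.13% of tested genes higher and 7.02% lower. The counts of the single lists below are to be read beside the same shares. Some of the counts of the 72 genes turned on single libraries. The 5 lower genes became 3 without control mouse 1, control mouse 4 or LPS mouse 7, as well as without LPS mice 6 and 7, and the 23 higher genes became 14 without dual-treatment mouse 2. The 1 lower gene became 2 without dual-treatment mouse 5, and the 7 higher genes became 13 with library size in place of TMM factors.

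Of the remaining NF-κB and IκB genes, 4 of 4 rose with LPS, from 1.04 for *Rela* to 2.53 ± 0.12 for *Nfkbie*, which encodes IκBε. In dual-treatment lungs *Nfkbie* was lower than with LPS (log2FC -1.01 ± 0.13) and higher than in control (1.52 ± 0.13). *Nfkbib*, which encodes IκBβ, rose by 2.31 ± 0.15 and was at -1.63 ± 0.16 against LPS. *Nfkbid*, which encodes the nuclear protein IκBNS, rose by 1.19 ± 0.26 and measured 10.3 and 9.75 CPM in dual-treatment mice, within the LPS range of 6.53 to 11.8 CPM. Its log2FC between these groups was 0.05 ± 0.29, and it was not called.

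Of the 9 kinases, 6 rose with LPS and 3 were not called. *Ikbke*, which encodes the IKK-related kinase IKKε, had the largest change (log2FC 3.38 ± 0.18), with 13.1, 10.7 and 16.5 CPM in control, 116, 164 and 140.2 CPM in LPS, and 106 and 96.6 CPM in dual-treatment mice. Its dual-treatment mice lay below each LPS mouse but far above control, and the difference from LPS did not pass (log2FC -0.47 ± 0.18, adjusted p = 0.0508 by edgeR's quasi-likelihood test, with p-values adjusted by Benjamini-Hochberg). *Tbk1*, the related kinase, measured 48.1 to 52.4 CPM in control, 183 to 212 CPM in LPS, and 67.9 and 52.6 CPM in dual-treatment mice (log2FC 2.02 ± 0.12 with LPS and -1.74 ± 0.14 against LPS). *Map3k14*, which encodes NIK, the kinase of the non-canonical pathway, had the lowest log2FC of the list at -0.05 ± 0.12 and was called in none of the comparisons. *Ikbkb*, which encodes IKKβ, rose by 0.46 ± 0.12.

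Of 21 receptor, adaptor and ubiquitin ligase genes, 14 rose with LPS, 3 fell and 4 were not called. The LPS co-receptor *Cd14* rose most, from 40.2 to 47.5 CPM in control to 629 to 1036 CPM in LPS mice, with 174 and 107 CPM in dual-treatment mice (log2FC 4.17 ± 0.25 with LPS and -2.50 ± 0.27 against LPS). *Irak2* (1.74 ± 0.11), *Malt1* (2.55 ± 0.18) and *Birc3* (2.87 ± 0.21) also rose, and fell with the dual treatment by 1.62, 2.14 and 1.76. *Tlr4* itself was lower with LPS, at 10.5 to 13.2 CPM against 14.3 to 17.1 CPM in control (log2FC -0.40 ± 0.16). That call was near the threshold, with a Benjamini-Hochberg adjusted p of 0.0438 by edgeR's quasi-likelihood test. In dual-treatment mice *Tlr4* was higher than with LPS, at 22.7 and 17.1 CPM. *Ticam2*, which encodes the adaptor TRAM, had 37, 35 and 41 counts in control, 1, 3 and 9 counts in LPS, and 58 and 147 counts in dual-treatment libraries. *Irak4* (log2FC 0.95 ± 0.13) and *Traf2* (0.35 ± 0.09) were also higher in dual-treatment than in LPS lungs, and neither was called with LPS.

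Of 18 further brakes, 13 rose with LPS, 2 fell and 3 were not called. *Socs1*, a suppressor of cytokine signalling, measured 4.75, 5.54 and 5.52 CPM in control, 150.2, 81.5 and 94.6 CPM in LPS, and 5.99 and 4.92 CPM in dual-treatment mice. As with *Rel*, its dual-treatment mice overlapped the control mice, and the log2FC was 4.37 ± 0.24 with LPS and -4.32 ± 0.28 against LPS. *Tnip1*, which encodes the A20 partner ABIN-1, was at 3.23 ± 0.20 with LPS and stayed above control in dual-treatment lungs (1.53 ± 0.21). *Zfp36*, which encodes the mRNA-decay factor tristetraprolin, rose by 3.01 ± 0.32, and *Dusp1*, a MAP kinase phosphatase, by 2.56 ± 0.23. *Sigirr*, an inhibitory receptor of the interleukin-1 receptor family, fell by 1.67 on the log2 scale with LPS and was 1.63 ± 0.17 higher with the dual treatment. *Traf1* fell by 1.36 and was 1.03 ± 0.12 higher. *Zc3h12d*, a relative of *Zc3h12a*, was not called with LPS (0.02 ± 0.24) and was higher in dual-treatment than in LPS lungs (1.11 ± 0.26).

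Of 20 NF-κB target genes, 19 rose with LPS, with a median log2FC of 2.90, and 14 fell with the dual treatment (median -1.67). The granulocyte growth factor gene *Csf3* had the highest fitted value, and its control libraries held 1, 0 and 1 counts, against 2930, 2428 and 1858 in LPS and 159 and 10 in dual-treatment libraries. The median of the list was the same with *Csf3* set against a floor of 3 counts per library. The neutrophil chemokine *Cxcl2* measured 3.77, 2.72 and 6.76 CPM in control, 718, 434 and 385 CPM in LPS, and 10.6 and 6.89 CPM in dual-treatment mice. *Csf2* had the lowest log2FC with LPS, 0.42 ± 0.48, and was not called. *Ccl2*, a monocyte chemokine, rose by 3.99 ± 0.47 and was at 57.8 and 35.9 CPM in dual-treatment mice, overlapping the LPS mice at 49.2 to 145 CPM. *Cd83*, a maturation marker of dendritic and B cells, was the gene below control, at 7.62 and 6.72 CPM in dual-treatment mice against 14.2 to 15.8 CPM in control (log2FC -1.07 ± 0.21). Against control 10 targets were higher in dual-treatment lungs.

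Overlapping genes limit some values, because the strand setting of the counting is not given in the sources used here. *Psd* lies on the opposite strand to *Nfkb2* and overlaps its 3′ end (chr19:46300522-46315612), and it measured 11.0 to 13.7 CPM in control, 94.5 to 128 CPM in LPS, and 19.3 and 16.7 CPM in dual-treatment mice. Reads of *Psd* and *Nfkb2* in the shared stretch cannot be told apart without strand, so that both values are uncertain. *Tmbim4* overlaps the 5′ end of *Irak3* on the opposite strand (chr10:120037495-120062034), and measured 51.9 to 66.2 CPM in control, 133 to 201 CPM in LPS, and 79.6 and 60.4 CPM in dual-treatment mice. The antisense transcript *4833438C02Rik* at the 5′ end of *Nfkb2* held at most 14.3 CPM, and *Gm43430* in *Nfkb1*, *Gm36634* in *Nfkbia*, *Gm16175* in *Bcl3* and *Gm47009* in *Irak3* held at most 11 counts in any library. *Tnfaip3*, *Nfkb1* and *Irak3* also overlap lncRNA genes of GENCODE M39 whose identifiers the count files do not hold. *Rel*, *Relb*, *Nfkbiz* and *Zc3h12a* overlapped no annotated gene.

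The promoters of the 10 genes were searched for the NF-κB consensus motif (κB motif) of 10 bases on both strands. Because the 10 were chosen as genes of the NF-κB pathway, the share with a match describes the list and is no test of a cause. RefSeq promoter windows of GRCm38.p6, each with 250 bases before and 50 bases from a gene's start on, were held for 7 of the 10 genes, *Nfkb2*, *Rel*, *Nfkbia*, *Bcl3*, *Tnfaip3*, *Irak3* and *Zc3h12a*. Not held were *Nfkb1*, *Relb* and *Nfkbiz*. Of these 7 genes, 5 had a match in at least 1 window, or 71.4%, and 7 of their 11 windows held one (63.6%). Among the pathway genes 14 of 54 had a match (25.9%), among all genes with a window 1388 of 27025 (5.14%), and 1480 of all 32851 windows (4.51%). Among the tested genes with a window, to which the 10 belong where they have one, 819 of 12694 had a match (6.45%), in 871 of 16119 windows (5.4%). *Irak3* and *Zc3h12a* had no match in these windows, which says only that these letters are not there. A match is a description of the sequence and was not tested for binding. The starts are those of the RefSeq windows, and most lie inside the gene as annotated in GENCODE M39. They lie 417 and 1375 bases into *Nfkb2* for the windows printed, 295 into *Rel*, 890 into *Bcl3* and 247 into *Tnfaip3*. For *Nfkbia* the offset is 0. Distances and transcribed bases below are counted from these RefSeq starts. The windows are printed 5′ to 3′ on the strand of the gene with the matched bases in capitals, to show where the motif lies in the promoters of 5 of the genes, and each was placed on GRCm39 by an exact match. That of *Nfkb2* at chr19:46292926-46293225 (plus strand) holds a match that reads on both strands 39 bases before the start, a shifted match on the minus strand of the window, and a further match 11 bases before the start. A further *Nfkb2* start has matches at chr19:46293884-46294183 (plus strand), and the match near its 3′ end also lies in an overlapping *Nfkb2* window. That of *Rel* is at chr11:23720920-23721219 (minus strand), where overlapping matches on both strands begin 92 and 91 bases before the start. That of *Nfkbia* is at chr12:55539383-55539682 (minus strand), with a match 29 bases before the start, and that of *Bcl3* at chr7:19556631-19556930 (minus strand), with a match at transcribed base 3. That of *Tnfaip3* is at chr10:18891109-18891408 (minus strand), with matches 125 and 12 bases before the start.
Nfkb2, first start: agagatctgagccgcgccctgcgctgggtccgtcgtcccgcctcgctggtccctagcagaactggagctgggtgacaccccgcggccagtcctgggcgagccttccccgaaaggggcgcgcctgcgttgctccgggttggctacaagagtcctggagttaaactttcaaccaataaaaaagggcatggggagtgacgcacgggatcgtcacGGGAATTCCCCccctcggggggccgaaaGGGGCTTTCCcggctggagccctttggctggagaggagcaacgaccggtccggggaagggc
Nfkb2, further start: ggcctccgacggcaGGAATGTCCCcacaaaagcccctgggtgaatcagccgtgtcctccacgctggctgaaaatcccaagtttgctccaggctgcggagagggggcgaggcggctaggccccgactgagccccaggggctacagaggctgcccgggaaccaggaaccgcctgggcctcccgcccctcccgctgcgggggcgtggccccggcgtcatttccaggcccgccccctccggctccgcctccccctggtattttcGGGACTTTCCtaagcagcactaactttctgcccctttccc
Rel: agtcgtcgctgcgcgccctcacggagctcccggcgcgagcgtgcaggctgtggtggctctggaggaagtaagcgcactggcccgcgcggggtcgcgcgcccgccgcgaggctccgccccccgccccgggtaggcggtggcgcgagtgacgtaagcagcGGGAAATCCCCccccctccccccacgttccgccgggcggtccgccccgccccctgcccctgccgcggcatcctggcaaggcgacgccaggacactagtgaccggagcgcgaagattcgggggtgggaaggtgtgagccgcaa
Nfkbia: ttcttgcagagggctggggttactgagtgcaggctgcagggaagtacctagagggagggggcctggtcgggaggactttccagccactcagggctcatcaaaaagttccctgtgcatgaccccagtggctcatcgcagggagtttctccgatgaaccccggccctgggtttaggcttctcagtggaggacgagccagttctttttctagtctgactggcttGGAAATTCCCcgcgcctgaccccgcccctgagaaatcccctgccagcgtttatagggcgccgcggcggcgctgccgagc
Bcl3: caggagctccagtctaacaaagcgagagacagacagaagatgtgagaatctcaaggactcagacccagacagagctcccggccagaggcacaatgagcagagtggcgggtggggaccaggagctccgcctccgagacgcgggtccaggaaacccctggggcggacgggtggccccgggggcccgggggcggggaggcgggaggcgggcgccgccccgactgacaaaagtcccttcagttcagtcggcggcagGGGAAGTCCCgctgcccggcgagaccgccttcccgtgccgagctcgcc
Tnfaip3: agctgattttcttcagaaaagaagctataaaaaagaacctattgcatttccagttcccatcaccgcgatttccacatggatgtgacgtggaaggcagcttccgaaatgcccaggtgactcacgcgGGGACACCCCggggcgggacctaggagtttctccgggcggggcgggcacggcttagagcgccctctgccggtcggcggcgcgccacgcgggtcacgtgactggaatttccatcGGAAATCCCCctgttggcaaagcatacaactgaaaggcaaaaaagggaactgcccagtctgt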

How the data were processed

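Lung RNA from 8 mice was analysed. As per the labels and methods, the authors checked reads with FastQC 0.11.9, trimmed them with Trim Galore, aligned them to GRCm39 with HISAT2 2.2.1, counted them per gene with featureCounts 2.0.1 and deposited the raw counts of each mouse without normalization. The annotation release, the strand setting and the handling of multi-mapping reads are not given in the sources used here. Symbols, coordinates and exon lengths came from GENCODE M39, which matched 54749 of 55416 identifiers. Counts were tested in R 4.3.3 with edgeR 4.0.16 (TMM factors, filterByExpr by group, a quasi-likelihood fit of the 8 libraries together, 1 group factor, 5 residual degrees of freedom), with Benjamini-Hochberg adjustment over 18560 genes and a threshold of 0.05. Replicate mice differed by more than sampling noise, with chi-square per degree of freedom from 8.08 to 40.8 between mice of a group. CPM are TMM-normalized, profiles used log2 CPM with a prior count of 2, and each SE was taken from the log2FC and its F statistic. The procedure was tested on simulated data. Alternatives were DESeq2 1.42.0 (the authors' tool), library size, RLE and upper-quartile scaling, no filter or at least 10 counts in every library, only the 2 groups compared, the fold change of 2 of the study's rule with and without adjustment, and each mouse left out, as well as LPS mice 6 and 7 together.

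The genes described and all lists were chosen with earlier results of these data known. Of each pathway list, the genes with the highest and the lowest log2FC with LPS, most of those called against the rest of the list, and up to 3 more were named. The nearest profile by Euclidean distance was named for 9 of the 10 genes, and the 5 nearest for their mean. *Lor*, of the squamous epithelium list, had no matching identifier, and 8 of the 9 skeletal muscle markers passed the filter. Other measurements of the study were not analysed here.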

Additional observations from a re-analysis of the deposited data

How the results depend on the processing

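No log2FC of the 10 genes changed direction under any alternative. In LPS against control 158 values stayed on their side of the threshold and 2 lost the call, in dual treatment against LPS 142 stayed and 8 lost it, and in dual treatment against control 134 stayed, 2 lost it and 4 gained it. With a fold change of 2 required, *Nfkb1* lost the call with LPS, *Nfkb1*, *Nfkb2* and *Irak3* lost it in dual treatment against LPS, and *Nfkb2* lost it in dual treatment against control. The 4 gains were those of *Nfkbiz* with DESeq2, library size, no filter, and only the 2 groups compared.

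The count of pathway genes lower with LPS (5) was 3 with a fold change of 2 required, with or without adjustment, and 3 without LPS mice 6 and 7, and ran from 3 to 4 when single mice were left out. The count higher in dual treatment against LPS (7) was 13 with library size and 4 with a fold change of 2 required, with or without adjustment, and the count higher in dual treatment against control (23) ran from 14 to 23 when single mice were left out. The count lower in that comparison (1) was 2 with DESeq2 and ran from 1 to 2 when single mice were left out. The causes were not tested.

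Over all tested genes, higher and lower calls with LPS (6046 and 6300) were 3401 and 4049 with a fold change of 2 and unadjusted p, and 3318 and 3961 with adjusted p. In dual treatment against LPS (5875 and 5085) they were 3826 and 2728, and 3666 and 2598, and library size gave 7889 and 3225. In dual treatment against control (1695 and 1302) they were 1307 and 637, and 974 and 353. In that comparison they were 1088 and 700 without control mouse 1, 973 and 580 without control mouse 2, 977 and 733 without control mouse 4, and 790 and 430 without dual-treatment mouse 2.

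No paired analysis was possible because, by the methods, mice were assigned to the groups at random, so that the groups hold different animals. With 2 dual-treatment mice, leaving out either leaves a lone sample, which is assumed to vary like the other groups.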
